A study of Mus musculus with 4 samples.

Results

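The comparison described here sets mouse embryonic stem cells treated with doxycycline and TCP for 48 h against cells of the same line for which the labels name no treatment. It rests on 2 of the 4 arrays of the series, chosen by their labelled treatment. The other 2 arrays, of cells given doxycycline alone (dox), share the estimate of the spread and show where doxycycline plus TCP (dox+TCP) differed from doxycycline. The cells were ZHBTc4, a line in which both endogenous copies of Pou5f1 are disrupted and Oct4, its protein, comes from a transgene that doxycycline shuts off. They came from irradiated embryonic fibroblast feeders, were kept for 2 passages on gelatin and received 2 µg of doxycycline, per the labels' protocols, which give no volume and no dose of TCP. The labels do not spell out TCP; in studies of LSD1 it commonly means tranylcypromine. Each array carried treated cells in Cy5 and the reference in Cy3, and dyes were not swapped. A ratio to this reference therefore holds doxycycline, the loss of Oct4, TCP and any dye bias of a gene together, and these cannot be told apart in it. All cells were of 1 line.

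Oct4 is a transcription factor that holds embryonic stem cells in the undifferentiated state, and without it they turn toward trophoblast, the lineage that forms the outer part of the placenta. LSD1 (Kdm1a) is an enzyme that removes methyl groups from lysine 4 of histone H3, a mark of active promoters and enhancers, and the series title asks about its part at enhancers during differentiation. Tranylcypromine blocks LSD1 and also the monoamine oxidases Maoa and Maob.

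Ddit3, S100a13 and Nr0b1, the genes that mark this comparison, moved far from the reference on both arrays. Ddit3 encodes CHOP, a transcription factor of the integrated stress response. S100a13 encodes a small calcium-binding protein. Nr0b1 encodes Dax1, a nuclear receptor without known ligand that takes part in the stem cell network. Their promoters are shown because these genes are the given markers of this comparison. Those of Nupr1 (a stress response gene) and Insig1 (a regulator of sterol synthesis) are shown too. Nupr1 and Insig1 stand for lists described further on and were chosen after their values were seen. Each line holds the 250 bases before the start site, 5′ to 3′ on the gene's strand, from RefSeq on GRCm38.p6. Capitals mark matches, on either strand, to CCAAT (the CCAAT box), TATAAA (the TATA box), TGATGCAAT (the element bound by C/EBP-ATF pairs) or TCACNCCAC (a sterol regulatory element); these motifs do not overlap each other in the lines shown.
Ddit3, chr10:127290543-127290792, + strand: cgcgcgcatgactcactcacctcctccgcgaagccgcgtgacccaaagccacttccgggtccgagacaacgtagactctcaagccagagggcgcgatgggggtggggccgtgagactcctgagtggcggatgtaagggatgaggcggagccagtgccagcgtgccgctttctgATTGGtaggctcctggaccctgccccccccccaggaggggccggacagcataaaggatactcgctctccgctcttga
S100a13, chr3:90514185-90514434, + strand: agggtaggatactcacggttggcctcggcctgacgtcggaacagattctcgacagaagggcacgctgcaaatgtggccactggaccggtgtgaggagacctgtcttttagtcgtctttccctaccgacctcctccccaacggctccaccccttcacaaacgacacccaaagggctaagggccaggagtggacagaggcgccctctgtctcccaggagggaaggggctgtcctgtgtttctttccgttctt
Nr0b1, chrX:86191525-86191774, + strand: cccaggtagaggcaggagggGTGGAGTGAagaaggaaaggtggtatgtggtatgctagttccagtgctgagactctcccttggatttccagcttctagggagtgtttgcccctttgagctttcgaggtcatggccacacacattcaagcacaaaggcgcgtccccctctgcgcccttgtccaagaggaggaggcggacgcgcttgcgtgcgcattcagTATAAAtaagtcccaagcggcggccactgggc
Nupr1, chr7:126625471-126625720, - strand: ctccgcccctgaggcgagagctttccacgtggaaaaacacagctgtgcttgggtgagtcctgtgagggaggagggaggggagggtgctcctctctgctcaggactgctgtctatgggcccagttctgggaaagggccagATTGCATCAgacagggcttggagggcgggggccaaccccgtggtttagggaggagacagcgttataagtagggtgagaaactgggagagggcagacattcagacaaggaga
Insig1, chr5:28071162-28071411, + strand: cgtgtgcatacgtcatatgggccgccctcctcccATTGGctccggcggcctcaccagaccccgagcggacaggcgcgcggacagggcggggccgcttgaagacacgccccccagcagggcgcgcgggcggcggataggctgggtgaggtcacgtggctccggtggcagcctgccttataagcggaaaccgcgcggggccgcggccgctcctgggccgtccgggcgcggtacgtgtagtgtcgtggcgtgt

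Ddit3 has a CCAAT match 77 bases before its start, and Insig1 has one 216 bases before. Nr0b1 has a TATAAA match 32 bases before its start and a TCACNCCAC match 230 bases before. Nupr1 has a TGATGCAAT match 111 bases before, and S100a13 holds none of the motifs in this window. Of 32851 RefSeq windows of this length, 33.8% held CCAAT, 12.4% TATAAA, 1.05% TCACNCCAC and 0.167% TGATGCAAT. A match describes the letters only and does not show that a factor binds.

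S100a13 had log2 ratios to the reference of 3.24 and 3.41 on dox+TCP replicates 1 and 2. Ddit3 had ratios of 3.04 and 3.49, and Nr0b1 had ratios of -5.12 and -5.41. Both arrays were high for the first pair of genes and low for Nr0b1. As means, S100a13 stood at 3.33 ± 0.09 (SE of the fit, n = 2 arrays; limma adjusted p = 0.015), a 10.03-fold rise. Ddit3 stood at 3.27 ± 0.24 (limma adjusted p = 0.017), a 9.64-fold rise. Nr0b1 stood at -5.27 ± 0.11 (limma adjusted p = 0.015), 38.5-fold lower, the deepest fall among the called genes. On mm7 (NCBI35), the build of the files, the probes lie at chr3:90647126-90655132 for S100a13 (NM_009113), chr10:126796858-126797161 for Ddit3 (NM_007837) and chrX:81582482-81582541 for Nr0b1 (NM_007430); a gene annotation of that build was not used here.

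Pou5f1, the target of the shut-off, had ratios of -3.29 and -3.28, a mean of -3.29 ± 0.10 (limma adjusted p = 0.015), so both arrays labelled dox+TCP carried the loss. The Pou5f1 probe (NM_013633) lies at chr17:33612047-33612107 in mm7. Kdm1a, the gene of LSD1, had ratios of 0.02 and 0.05 and a mean of 0.04 ± 0.09 (limma adjusted p = 0.81). Maoa stood at -0.42 (ratios -0.37 and -0.48; limma adjusted p = 0.15) and Maob at 0.25 (0.43 and 0.07; limma adjusted p = 0.348). None of these RNA levels measures enzyme activity.

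On the dox+TCP arrays, the median signal of non-control spots was 224 and 239 in Cy5 and 120 and 141 in Cy3, and 68.8% to 78.1% of spots were well above background in a channel. No spot was saturated (0). Both replicate 1 arrays lay on 1 slide, and dox+TCP replicate 2 lay on a slide of its own that was scanned on a later day than the other 3 arrays. The labels call the samples biological replicates. The number of arrays limits the precision, with a median SE of 0.114 for a log2 ratio. Of 15 feeder fibroblast markers, 1 was called higher (Pdgfrb, 1.15) and 1 lower (Thy1, -1.12), 13.3% against 15.4% of all genes. Their median was 0.01, and 0.21 when each array was centred on its median in place of the loess curve. Their summed level (log2 of summed intensity) was 14.96 and 15.15 in Cy5 and 14.86 and 15.04 in Cy3.

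Of 21411 genes tested, limma called 3297 (15.4%), 1565 higher (7.31%) and 1732 lower (8.09%), and 676 of the higher and 800 of the lower ones changed by at least 2-fold (6.89% of genes tested). Before adjustment, 7107 genes (33.2%) had a p under 0.05. Called means a limma adjusted p under 0.05. The smallest change among called genes was 0.39 on the log2 scale, and the median size was 0.95. The count rests on the spread shared by all 4 arrays. Leaving 1 array out leaves a lone array in its group and fewer degrees of freedom. The counts of such fits therefore do not show what the array left out had measured. limma called 0 genes without dox+TCP replicate 1 (3352 at an unadjusted p under 0.05) and 0 without replicate 2 (3592), and it called 5936 genes when either dox array was left out. With local backgrounds exactly as scanned it called 0 genes (1908 at an unadjusted p under 0.05). Centring each array on its median in place of the loess curve moved the median of all genes from 0.03 to 0.18 and called 4002 genes higher (18.7%) and 1107 lower (5.17%), so that 78.3% of calls were higher against 47.5%, and list medians that change sign between the scalings are given with both. Those were the lists of mesoderm, H3K4 methylation, endoplasmic reticulum chaperone, DNA replication and mitosis genes, and that of G1 cyclins, CDKs and inhibitors (-0.27 and 0.036). Median centring also raised the number called higher from 8 to 16 in the integrated stress response list, from 4 to 8 among p53 targets, from 5 to 10 in the fatty acid carrier list, from 3 to 6 in primitive endoderm and from 3 to 7 in the amino acid list.

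The replicates ordered genes alike. Over 21386 genes measured on both arrays, ratios correlated at 0.865 (Pearson) and 0.807 (Spearman); genes are not independent replicates. The sign was the same for 80.0% of these genes. The replicate 1 arrays of dox and dox+TCP correlated at 0.878 (Pearson), higher than the 2 dox+TCP replicates, and their replicate 2 arrays at 0.815. A ratio past 1 in the same direction on both arrays was seen for 1457 genes (6.81%), 611 up and 846 down. Past 1 in opposite directions were 6 genes, all low on replicate 1 and high on replicate 2. The SD of the difference between the arrays was 0.332, and 313 genes differed by more than 1.

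**Figure D1:**
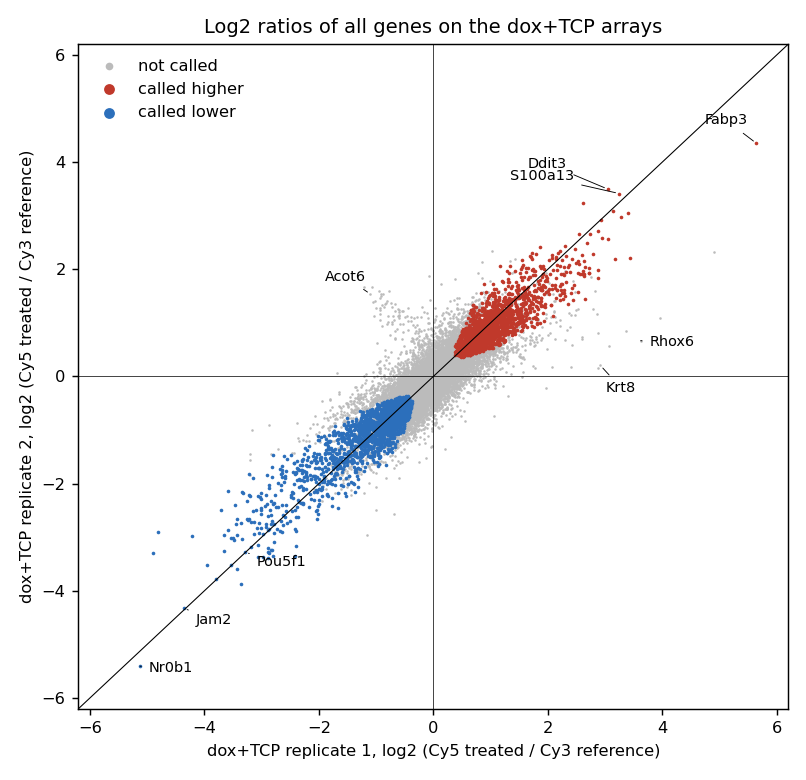
Each point is 1 gene, with its log2 ratio to the reference on dox+TCP replicate 1 (x axis) and replicate 2 (y axis); red and blue points were called higher and lower by limma, grey points were not called, and the line marks equal ratios. Nr0b1, Jam2, Pou5f1, S100a13 and Ddit3 lie near the line, while Krt8 and Rhox6 lie below it and Acot6 above it.

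The 15 largest rises ran from 2.59 to 4.99 on the log2 scale. Fabp3, a fatty acid carrier, rose most, with ratios of 5.64 and 4.35 and a mean of 4.99 ± 0.52 (limma adjusted p = 0.021), and its reference level differed between the arrays as described for trophoblast genes below. Adssl1, an enzyme of AMP synthesis in muscle, had ratios of 3.39 and 3.05. Zfp773, a zinc finger gene, had 3.13 and 3.09, and Emp2, a membrane protein gene, had 2.93 and 2.92. Rab11fip1, an effector of recycling endosomes, had 2.62 and 3.23. Each of these 4 genes was high on both arrays. Mogat2, an acyltransferase of triglyceride synthesis (3.05 and 2.55), Cidea, a lipid droplet protein (2.74 and 2.66), the peptide transporter Slc15a2 (2.88 and 2.70) and S100a1 (2.54 and 2.65) also rose. The list closes with Mbp (3.43 and 2.21), Tmem144 (2.94 and 2.59), Rgcc (3.17 and 2.19) and Prtg (2.68 and 2.49). S100a1 and S100a13 neighbour each other in the GRCm38.p6 annotation and their annotated spans overlap, though their probes do not.

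The largest falls named here lay between -5.27 and -3.27. Jam2, a junction protein gene, followed Nr0b1 with ratios of -4.36 and -4.32. Stmn2, a tubulin-binding protein of neurons, had -3.79 and -3.78. The Nodal co-receptor gene Tdgf1 had -3.53 and -3.51, and Tdh, the threonine dehydrogenase on which mouse embryonic stem cells depend, had -3.44 and -3.59. These 4 genes differed by at most 0.16 between the arrays. Vegfc, a growth factor gene of lymphatic vessels (-3.95 and -3.53), the ERK phosphatase gene Dusp6 (-3.37 and -3.87), Inhbb (-3.54 and -3.01), the arginine transporter gene Slc7a3 (-3.49 and -3.05) and Zfp296 (-3.66 and -2.96) fell as well. Replicates lay further apart for Skor1 (-4.80 and -2.91), Calca (-4.22 and -2.98) and Crocc2 (-4.89 and -3.30), and Crocc2 was well above background in the treated cells on 1 of 2 arrays.

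**Figure D2:**
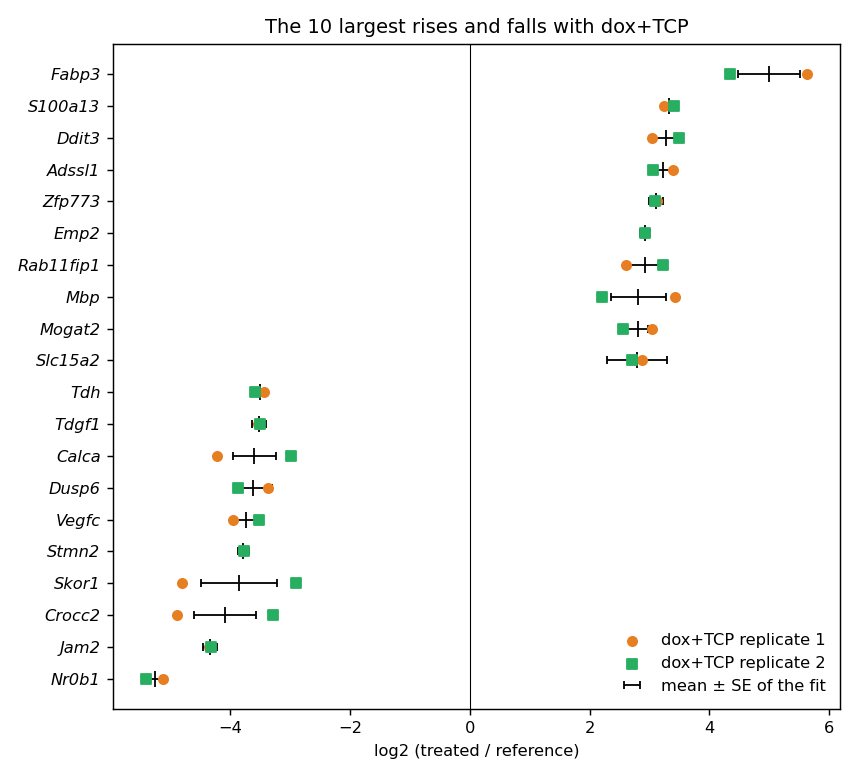
Log2 ratios to the reference (x axis) of the 10 genes that rose most and the 10 that fell most, with the ratio on each dox+TCP array and the mean ± SE of the limma fit. Fabp3 reaches 5.64 on replicate 1 and Nr0b1 reaches -5.41 on replicate 2, and the arrays lie furthest apart for Skor1.

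Transcription factors of pluripotency fell in 14 of 22 tested cases and rose in 2, with a median of -1.80 (-1.79 and -1.72 on the 2 arrays) against 0.03 over all genes. Esrrb (-2.36 and -2.62), Zfp42, a reporter of the stem cell state (-2.92 and -2.82), and the nuclear receptor gene Nr5a2 (-1.70 and -1.69) fell on both arrays by similar amounts. Sox2, which pairs with Oct4 on DNA, fell to -2.09 (-2.03 and -2.15; limma adjusted p = 0.022), and Nanog did not pass (-0.31 and -0.79; limma adjusted p = 0.133). The 2 members that rose were Klf2 (0.84 and 1.28; mean 1.06, limma adjusted p = 0.030) and Tfcp2l1 (1.19 and 0.81; mean 1.00, limma adjusted p = 0.026), both factors of naive stem cells. On the dox arrays Klf2 stood at 0.14 and -0.13 and Tfcp2l1 at 0.17 and 0.28. limma called 0 of 21411 genes between dox+TCP and dox, and the groups did not overlap for 33.1% of genes measured on all 4 arrays. Sox2, Nanog, Klf2 and Tfcp2l1 were chosen after their values were seen. These are bulk samples, so fewer cells of a type and less RNA per cell cannot be told apart.

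Signalling and reporter genes of stem cells fell in 13 of 21 cases and rose in 0, with a median of -1.26. Besides Jam2, Tdgf1 and Tdh, the ligand genes Gdf3 (-2.29 and -2.37) and Nodal (-2.16 and -2.18) fell. Genes induced by FGF-ERK signalling fell in 7 of 13 cases and rose in 0, with a median of -1.57 (-1.76 and -1.19). After Dusp6 these were led by the feedback inhibitor genes Spry2 (-3.06 and -3.15), Spry4 (-3.37 and -2.73; above background in the treated cells on 1 array) and Spred1 (-1.76 and -1.68), and Phlda1 (-1.37 and -1.301) fell too. Of 6 two-cell-like genes tested, which a few cells of such cultures switch on together, 3 fell: Zscan4c (-2.01 and -1.70), Tcstv3 (-1.39 and -1.14) and Tcstv1 (-1.26 and -0.97).

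Neuronal genes that the repressor REST controls fell in 6 of 12 cases and rose in 0, with a median of -0.65. Calca and Stmn2 are among them, with the neurofilament genes Nefl (-2.89 and -2.60), Nefh (-2.39 and -2.44) and Nefm (-1.85 and -1.64). Neuroectoderm genes fell in 5 of 12 cases, led by the homeobox gene Gbx2 (-3.43 and -2.95) and Pou3f1 (-2.18 and -1.67). Tubb3, a neuronal tubulin, had ratios of -1.16 and -1.25. Mesoderm genes held 1 called member of 11 (9.09%, against 15.4% of all genes), Tbx6 (1.43 and 1.08), with a median of -0.13 (0.0038 under median centring). Of 17 primitive endoderm genes, 3 rose, the basement membrane genes Col4a1 (1.32 and 1.35), Col4a2 (1.24 and 1.03) and Lamb1 (1.32 and 1.77), and Cubn fell (-1.76 and -1.39). The share called was 23.5%, against 15.4% of all genes.

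Trophoblast genes were mostly above the reference, but the replicates gave different sizes. Of 23 trophoblast markers and placental genes, 4 were called higher and 0 lower (17.4%), with a median of 1.97 on replicate 1 and 0.36 on replicate 2. Fabp3, the growth factor gene Igf2 (2.87 and 1.83), the coregulator gene Cited1 (2.25 and 1.56) and the imprinted RNA H19 (1.97 and 1.57) were the called members. Of 16 trophoblast transcription factors, Msx2 (2.29 and 1.49) and Id2 (1.02 and 0.93) were called (12.5%, against 15.4% of all genes), and the list's median was 0.93 and 0.22 on the 2 arrays. Under median centring, 10 of the markers and 7 of the transcription factors were called higher.

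Several defining trophoblast genes did not pass, and their replicates lay far apart. Krt8, a keratin of simple epithelia, had ratios of 2.92 and 0.20 (limma adjusted p = 0.414). Its partner Krt18 had 3.96 and 1.09 (limma adjusted p = 0.225). Cdx2, a master regulator of trophoblast, had 2.87 and 0.17 (limma adjusted p = 0.369). Each of the 3 was high on replicate 1 and near or closer to the reference on replicate 2. The placental homeobox genes Esx1 (4.90 and 2.32), Rhox6 (3.62 and 0.67) and Rhox9 (3.36 and 0.85), with Krt7 (2.40 and 0.18), Plac1 (1.97 and -0.22) and the hormone gene Sct (3.07 and 0.57), differed in the same direction.

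The gap lay mostly in the reference channel. In normalized log2 intensity, Krt8 stood at 13.49 and 16.44 in the reference (Cy3) of replicates 1 and 2, and at 16.41 and 16.64 in the treated cells (Cy5). Esx1 stood at 8.43 and 11.08 in the reference and at 13.33 and 13.40 in the treated cells. Rhox6 stood at 12.16 and 15.13 in the reference and at 15.78 and 15.79 in the treated cells. The treated cells thus had like levels of these 3 genes on both arrays, while the reference of replicate 2 was brighter. Cdx2 differed in both channels, with 9.07 and 10.38 in the reference and 11.94 and 10.54 in the treated cells. In the reference channel, all 23 markers of the list were brighter on replicate 2, with a median difference (replicate 1 minus replicate 2) of -1.2995 on the log2 scale, and their summed level was 16.60 and 18.69 in the reference and 19.65 and 19.90 in the treated cells. All 23 were well above background in at least 1 array of each channel. Of the 120 genes whose ratio was higher on replicate 1 by more than 1, 80 had a larger difference in Cy3 than in Cy5.

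**Figure D3:**
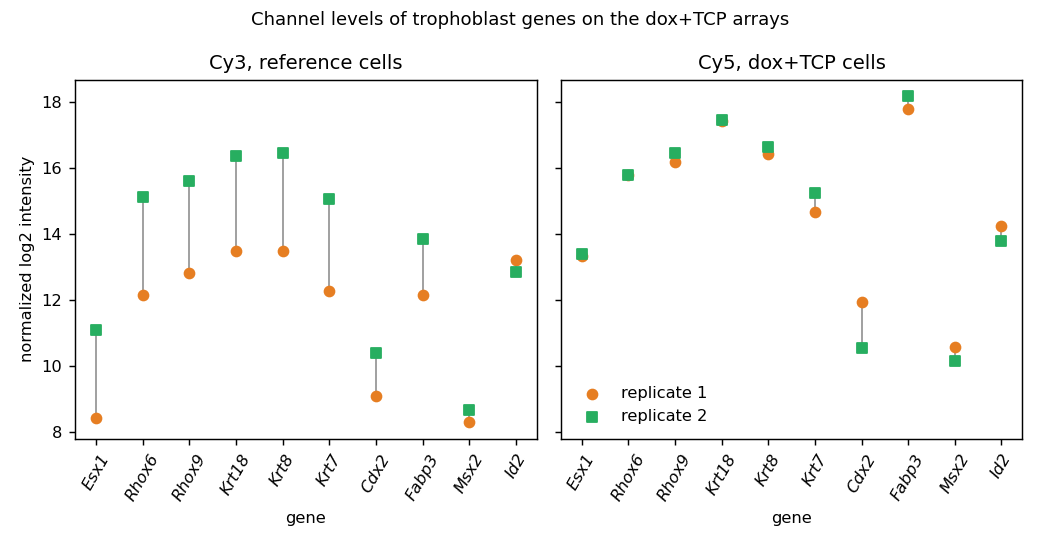
Normalized log2 intensity (y axis) of 10 trophoblast genes in the reference cells (Cy3, left) and the dox+TCP cells (Cy5, right), with circles for replicate 1 and squares for replicate 2. In the reference, Krt8 rises from 13.49 to 16.44 between the arrays, while in the treated cells it stands at 16.41 and 16.64.

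Genes of the opposite kind, with a ratio higher on replicate 2 by more than 1, numbered 193, and 17 of them were called. Their median difference between the arrays (replicate 1 minus replicate 2) was -0.88 in Cy5 and 0.48 in Cy3. The widest gaps among genes with a symbol, leaving out clones and predicted transcripts, were those of Acot6, a fatty acyl thioesterase gene (-1.10 and 1.53), Slc25a35, a mitochondrial carrier gene (-1.05 and 1.39), Syt6 (-1.02 and 1.40), Evx2 (-0.93 and 1.46), Pgk2 (-0.77 and 1.59), Eml6 (-0.999 and 1.28), Kif12 (-0.90 and 1.33) and Bbip1 (-0.94 and 1.28). All 8 were below the reference on replicate 1 and above it on replicate 2. Acot6 stood at 7.60 and 9.55 in the treated cells and at 8.70 and 8.02 in the reference, and Syt6 at 8.13 and 10.24 against 9.15 and 8.84. None of the 8 passed. The trophoblast markers also differed between the dox arrays, which shared a scan day but not a slide, with medians of 2.27 and 0.56 on replicates 1 and 2. Medians of the trophoblast transcription factors there were 1.34 and 0.35. The part of slide and scan day in either kind of gap was not tested.

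Of 28 genes of the integrated stress response, which reads amino acid shortage and unfolded protein, 8 rose and 1 fell (32.1% called, against 15.4% of all genes). Their median was 0.44 (0.28 and 0.58 on the 2 arrays), and 0.84 under median centring. After Ddit3 the genes that rose included Nupr1, a chromatin-binding stress protein gene (1.70 and 2.23, limma adjusted p = 0.020), Cebpg, a C/EBP family factor (1.19 and 1.33), and Atf3 (1.15 and 1.102). Cebpb, chosen after its values were seen, rose to 2.43 (2.88 and 1.98; limma adjusted p = 0.042). Cth, an enzyme that makes cysteine, was the member that fell (-2.19 and -1.51). Other targets of the pathway stayed near the reference: Asns had 0.23 and 0.38 (limma adjusted p = 0.098) and Slc7a11 0.12 and 0.05 (limma adjusted p = 0.553), both chosen after their values were seen. Of 25 members with a promoter in the table, TGATGCAAT was in those of Nupr1 and Fgf21, and it was in 0.192% of 27025 genes. Of 13 endoplasmic reticulum chaperone genes, 0 were called, with a median of -0.02 (0.43 under median centring). Of 18 aminoacyl-tRNA synthetase genes, Sars (0.81 and 1.03) rose and Hars (-0.53 and -0.67) fell (11.1% called, below the 15.4% of all genes), and under median centring 8 were called higher and 0 lower.

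Targets of p53 rose in 4 of 18 cases and fell in 0 (22.2% called, against 15.4% of all genes), with a median of 0.48. They were the cell cycle inhibitor gene Cdkn1a (1.91 and 1.69), Ccng1 (1.23 and 1.31), the apoptosis gene Bbc3 (1.23 and 1.15) and Mdm2, which restrains p53 (1.19 and 1.12). Among cyclins, CDKs and inhibitors, Cdk6 (-2.21 and -1.66), Ccnd1 (-1.97 and -1.52) and Ccne1 (-0.97 and -1.25) fell, and the inhibitor gene Cdkn1b rose (0.55 and 0.63). DNA replication and mitosis genes fell in 5 of 20 cases, among them the helicase genes Mcm3 (-0.80 and -1.07) and Mcm5 (-0.77 and -1.06). The median of that list was -0.48 and turned to 0.019 under median centring, where 0 of its members were called.

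Of 30 genes that build sterols and fatty acids, 16 rose and 0 fell, with a median of 0.98 (0.95 and 0.98; 1.43 under median centring). Dhcr7, the last enzyme of one branch of cholesterol synthesis, had ratios of 1.72 and 1.98 (limma adjusted p = 0.017). The desaturase genes Fads2 (1.88 and 1.61) and Fads1 (1.54 and 1.503), the farnesyl diphosphate synthase gene Fdps (1.26 and 1.35) and Mvd of the mevalonate pathway (1.04 and 1.07) rose by like amounts on both arrays. Scd1, a stearoyl-CoA desaturase gene chosen after its values were seen, had the highest mean of the list, 2.14 (1.86 and 2.42; limma adjusted p = 0.018). Insig1, whose promoter is printed above, had 1.12 and 1.33. Of 20 members with a promoter in the table, 15 held CCAAT, against 37.5% of 27025 genes. Of the 20, 10 were called higher, and 8 of those held CCAAT. TCACNCCAC was in 1 promoter, that of Hmgcs1, which was not called higher, against 1.22% of genes. Genes of fatty acid carriers and triglyceride synthesis rose in 5 of 20 cases, with Mogat2, the phosphatidate phosphatase gene Lpin1 (1.62 and 1.94) and the acyl-CoA synthetase genes Acsl3 (1.24 and 1.43) and Acsl1 (1.09 and 1.03).

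Among genes of glucose uptake, glycolysis and hypoxia, 5 of 16 rose and 5 fell. The glucose transporter gene Slc2a3 (2.27 and 1.92) and the hexokinase gene Hk1 (1.86 and 1.63) rose, as did the hypoxia targets Vegfa (1.64 and 1.81) and Bnip3 (1.56 and 1.45), and Ldha fell (-0.81 and -0.72); under median centring 6 were called higher and 0 lower. Amino acid transporters moved both ways, with Slc1a4 (1.87 and 2.03) and the glycine transporter gene Slc6a9 (1.47 on both arrays) higher and Slc7a3 and Slc7a7 (-2.16 and -1.85) lower. Cytosolic ribosomal protein genes rose in 17 of 28 cases, with a median of 0.77, and all 28 were above 0 on both arrays. Their median was 1.55 under median centring, the widest gap between the scalings among the lists named here, and housekeeping genes moved from 0.05 to 0.61. Antigen presentation genes rose in 4 of 13 cases (30.8% called, against 15.4% of all genes), with B2m (1.75 and 2.00) and H2-K1 (1.30 and 1.43).

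Partners of LSD1 in its CoREST, CtBP and NuRD complexes fell in 6 of 21 cases and rose in 1, with a median of 0.04. That made 33.3% called, against 15.4% of all genes. The corepressor genes Rcor2 (-1.87 and -1.77) and Ctbp2 (-1.78 and -1.37) and the deacetylase gene Hdac1 (-0.70 and -1.08) fell, and Mta3 rose (0.85 and 0.77). Under median centring the median was 0.52, with 6 called higher and 2 lower. Of 21 genes of H3K4 methylation and enhancer cofactors, 4 fell and 0 rose: Ash2l (-1.10 and -1.08), Dpy30 (-1.004 and -1.17), Kdm5b (-0.97 and -1.18) and Men1 (-0.52 and -0.53). The share called, 4 of 21, was little above the 15.4% of all genes. The median of this list, -0.26, turned to 0.094 under median centring, with 1 member called higher and 3 lower. Of 9 DNA methylation and TET genes, 3 fell and 1 rose, and under median centring 1 was called higher and 1 lower. The cofactor gene Dnmt3l (-1.96 and -1.51) and Tet2 (-1.28 and -1.30) were among those that fell, and Tet3 rose (0.45 and 0.40). Of 8 genes of Polycomb repressive complex 2, Eed (-1.10 and -1.48) and Jarid2 (-1.51 and -0.97) fell and 0 rose. The fall of that list was not one-way under median centring, with 2 called higher and 2 lower. Both lists had a larger share called than the 15.4% of all genes. Monoamine and polyamine genes moved in 3 of 12 cases, a larger share than the 15.4% of all genes. Sat1, which acetylates polyamines, rose (1.05 and 1.62). Ddc (-2.001 and -2.37) and Th (-0.64 and -0.40), enzymes of monoamine synthesis, fell. The balance of this list turned under median centring, with 3 called higher and 1 lower.

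**Figure D4:**
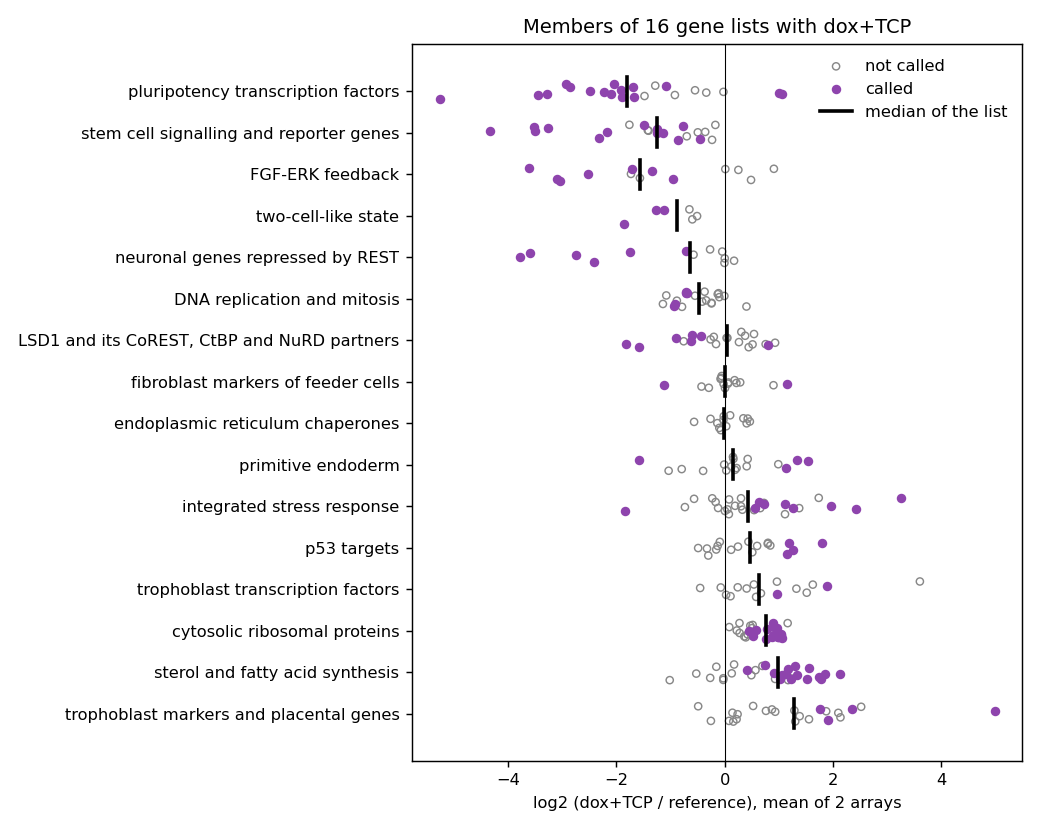
Mean log2 ratio to the reference (x axis) of each tested member of 16 gene lists, with filled points for genes called by limma, open points for genes not called and a bar at the list's median. The medians run from -1.80 for pluripotency transcription factors to 1.29 for trophoblast markers, whose value rests on arrays that differed.

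Of 28 junction and regulator genes of epithelia, 5 rose and 4 fell (32.1% called, against 15.4% of all genes), and under median centring 10 were called higher and 1 lower. The claudin gene Cldn3 (2.35 and 2.04), the tight junction gene Tjp3 (2.09 and 1.99) and the transcription factor gene Ovol2 (1.42 and 1.23) rose, and the epithelial regulator gene Grhl2 fell (-1.61 and -1.05). On the dox arrays Grhl2 stood at -0.54 and -0.45, and limma called 0 genes between dox+TCP and dox. Of 14 genes of mesenchymal transition, Ccn1 (1.20 and 0.86) and Itgb3 rose, and Twist1 (-1.46 and -1.48), Mmp2 and Snai2 fell. The share called was 35.7%, and under median centring 3 of the 14 were called higher and 1 lower. Of 12 AP-1 and C/EBP factor genes, 4 rose, among them Jund (1.21 and 1.25) and Fos (1.41 and 0.90), and Fosl2 fell (-1.24 and -0.73), so that 41.7% were called. Glutathione transferases moved both ways, with Gstm1 (1.22 and 1.05) higher and Gsta3 (-2.02 and -2.58) lower. Of 13 germline genes (30.8% called), Taf7l (1.42 and 1.36) and Stag3 rose and Tex19.1 (-1.31 and -1.91) and Hormad1 fell.

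The comparison with dox asks which of these levels TCP itself shifted. limma called 0 of 21411 genes (0.0%) between dox+TCP and dox, and 946 genes (4.42%) had an unadjusted p under 0.05. The smallest limma adjusted p was 0.996. Both groups were measured against reference cells of the same line, with 1 control per hybridisation, and their calls against the reference are not compared. Mme, which encodes the peptidase neprilysin, had the smallest unadjusted p. It stood at 0.35 and 0.34 with dox+TCP and at -1.45 and -1.38 with dox, a difference of 1.76. Glod5 stood at -1.36 and -1.49 against -2.70 and -2.90, Mylpf at -1.31 and -1.51 against -2.71 and -2.65, and Anxa8 at 0.03 and -0.09 against -1.07 and -1.07. On the other side, Chst5, a sulfotransferase gene, stood at 0.35 and 0.14 with dox+TCP and at 1.34 and 1.41 with dox. Rgma stood at 1.76 and 1.49 against 2.69 and 2.63, the RNA export gene Nxf1 at -0.995 and -1.04 against -0.27 and -0.21, and Tet3 at 0.45 and 0.40 against 1.19 and 1.17. These 8 genes were picked for their small p-values, so that their groups did not overlap follows from the choice, and none passed the adjusted threshold. Over 21348 genes measured on all 4 arrays, the groups did not overlap for 33.1%. When the mean of a gene's probes replaced the brightest probe, the dox+TCP mean of Mme was -0.26.

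The marker genes had moved the same way on the dox arrays. Ddit3 had 1.99 and 2.77 on the dox arrays, a difference of 0.89 ± 0.34 (dox+TCP minus dox, SE; limma adjusted p = 0.996). S100a13 had 2.72 and 2.75, a difference of 0.59 ± 0.12, and Nr0b1 had -5.81 and -5.69, a difference of 0.48 ± 0.15 (both limma adjusted p = 0.996). For each of these genes both dox+TCP values lay above both dox values, which was also the case for 20.2% of all genes measured on the 4 arrays, and none of the differences passed. A p that misses the threshold does not show that the groups were equal.

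**Figure D5:**
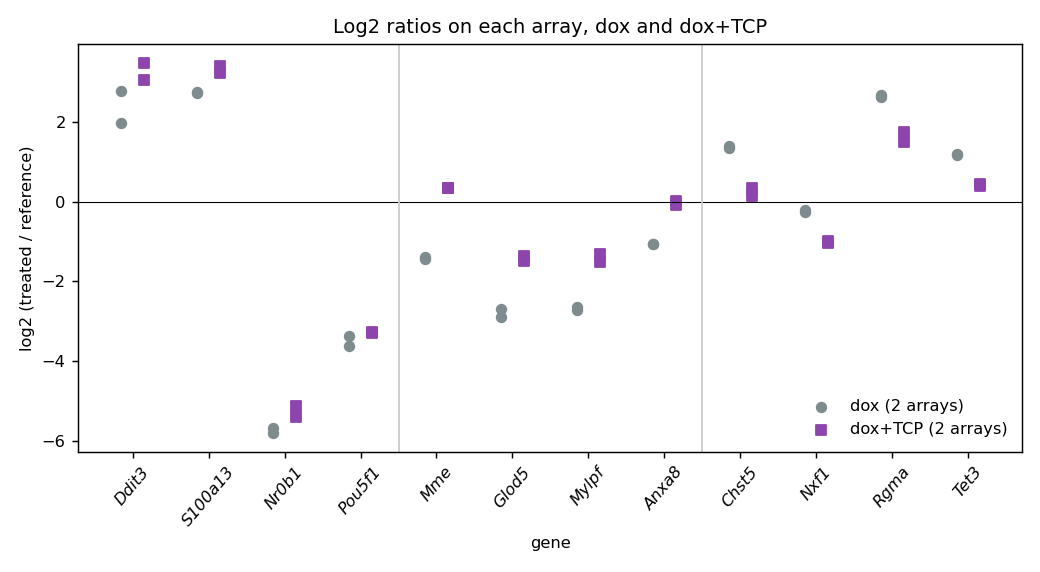
Log2 ratios to the reference (y axis) on each of the 2 dox arrays (circles) and 2 dox+TCP arrays (squares) for the marker genes and Pou5f1 (left), and for the genes with the smallest unadjusted p for dox+TCP above dox (middle) and below dox (right). Mme stands at 0.35 and 0.34 with dox+TCP and at -1.45 and -1.38 with dox.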

How the data were processed

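RNA was measured on 4 two-colour Agilent arrays, with 2 biological replicates for each treatment per the labels. Labelling used 1 µg of total RNA and an oligo-dT primer, according to the labels' protocols. Spots and their backgrounds are linear intensities as scanned, read with Agilent Feature Extraction 10.1.1.1 per the file headers. The log10 ratios in the authors' deposited files and series matrix matched each other within 0.005 and served as alternatives. In the matrix, column medians were 0, 0.0111, 0 and 0. Any other upstream step is not given in the sources used here.

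Of 45018 spots on an array, 1639 were controls and 43379 held 41174 probes. Where a local background exceeded 2 times the median of its array, the median took its place, since a few bright ones disturbed the correction. Signals were corrected with normexp (offset 50), followed by loess within arrays (limma 3.58.1, R 4.3.3). Control spots had weight 0 and were left out, and spots marked as outliers were set to missing. Probes entered the test when well above background in Cy5 on both arrays of a group or in Cy3 on all 4 arrays, which left 31114 probes and 21411 genes, each given by its brightest probe. Of these, 2107 passed only through Cy5. A group mean over all 4 arrays was fitted with eBayes (2 residual and 1.79 prior degrees of freedom) and adjusted by Benjamini-Hochberg at 0.05. Each hybridisation's reference is 1 control whose own spread is not estimated apart. Of the tested genes, 25 had 1 dox+TCP spot missing, and their mean is that of the other array; 2 of them were called. In Cy5, 31 called genes were not well above background, and in Cy3 22 were not, so their size is a bound, and for 22 genes another called probe had the opposite sign. Symbols were updated through GRCm38.p6: accessions gave 22951 probes their name, symbols 6659 and synonyms 3109, and for 8455 the file name was kept.

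The 35 gene lists (621 genes, 589 tested) and the arrays described were chosen with earlier results of these data known, so counts over them are descriptions. Named genes have a symbol that is not a clone or predicted transcript. They are the 15 largest rises and falls among called genes, the 5 members of a list with the smallest adjusted p, list members whose replicates differ by more than 2, the 8 genes with the widest replicate gap each way, the 4 each way with the smallest p against dox, and Pou5f1, Kdm1a, Maoa, Maob, Ddit3, S100a13 and Nr0b1. Some genes taken by this rule are not reported here.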

Additional observations from a re-analysis of the deposited data

How the results depend on the processing

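The count of called genes against the reference, 3297, stayed between 3113 and 3510 with no background subtraction (3126), a normexp offset of 16 (3510), background limits of 5 and 10 times the median (3346 and 3335), the scanner's or the deposited log ratios (3465 and 3467), no filter on dim probes (3218), a strict filter (3113), outlier spots kept (3288) and probes of a gene averaged (3363). With local backgrounds as read it was 0, 0 higher and 0 lower. Median centring called 5109 genes, 4002 higher and 1107 lower, of which 2532 were among the 3297. The dox+TCP arrays alone gave 5936 genes (2741 higher, 3195 lower), and leaving out 1 array gave 0 to 5936 genes, 0 to 2741 higher and 0 to 3195 lower. A lone array of a group is assumed to vary like the other group: without a dox array the spread comes from the dox+TCP arrays alone, and without a dox+TCP array from the dox arrays alone. Scan day as a block leaves 1 dox+TCP array in effect and called 0 genes (0 higher and 0 lower; 3595 at an unadjusted p under 0.05). Slide as a block could not be run because it leaves 0 residual degrees of freedom. With the replicate number as a block (replicate block), 5140 genes were called, 2414 higher and 2726 lower, of which 3238 were among the 3297. Deviations of same-numbered arrays correlated at 0.472, but with 2 pairs the arrays share only a number and a slide in 1 case. Between dox+TCP and dox, 0 genes were called under each alternative run. Genes past 1 in 1 direction on both arrays numbered 1457, 414 with backgrounds as read, 2236 with the scanner's ratios and 2228 with the deposited ones. Of the 3297 called genes, 28 turned sign under median centring and 17 with the mean of probes. Signs of named genes turned as follows. With backgrounds as read these were Acot6 (-0.050), Anxa8 (0.10), Bbip1 (-0.093), Eml6 (-0.018), Kif12 (-0.0064), Slc25a35 (-0.014) and Syt6 (-0.030). With median centring they were Anxa8 (0.31) and Prdx1 (0.059, called at -0.59 with loess), and with the mean of probes Mme (-0.26). With scan day as a block they were Acot6 (-1.10), Anxa8 (0.026), Bbip1 (-0.94), Eml6 (-0.999), Evx2 (-0.93), Kif12 (-0.90), Pgk2 (-0.77), Slc25a35 (-1.05) and Syt6 (-1.02). Leaving out 1 dox+TCP array gave ranges of -1.10 to 1.53 for Acot6, -0.090 to 0.026 for Anxa8, -0.94 to 1.28 for Bbip1, -0.999 to 1.28 for Eml6, -0.93 to 1.46 for Evx2, -0.90 to 1.33 for Kif12, -0.77 to 1.59 for Pgk2, -0.22 to 1.97 for Plac1, -1.05 to 1.39 for Slc25a35 and -1.02 to 1.40 for Syt6. Causes were not tested. Signal over background limits dim genes: 27670 genes were measured without the filter, against 21411 with it.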

Other observations

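Families read from gene symbols, 77 with at least 20 tested genes, showed further groups, chosen after their values were seen. Some of their members, such as Zfp42, Col4a1 and Col4a2, also stand in the lists above. Genes with symbols in Zfp and a number, mostly zinc finger proteins, were called lower in 66 of 321 cases (20.6%) and higher in 11 (3.43%), with a median of -0.34 (-0.35 and -0.30 on the 2 arrays). Zfp296 and Zfp987 led the falls, and Zfp773 led the rises. Genes of the Ddx family, RNA helicases, were called lower in 10 of 35 cases (28.6%) and higher in 0, with a median of -0.51, and RNA polymerase subunit genes (Polr) in 8 of 28 (28.6%) and 0, with a median of -0.45. Under median centring these medians were -0.15, -0.12 and -0.060, and 54 Zfp, 3 Ddx and 3 Polr genes were called lower against 35, 4 and 1 higher.

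Rab genes, GTPases of membrane traffic and their effectors, were called higher in 14 of 66 cases (21.2%), led by Rab11fip1 and Rab15, and lower in 4. Collagen genes were called higher in 6 of 34 cases (17.6%) and lower in 0, led by Col18a1 and Col20a1. Under median centring, 24 Rab genes were called higher and 1 lower, and 8 collagen genes higher and 0 lower. Among all genes, 7.31% were called higher and 8.09% lower.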
